A study of Mus musculus with 4 samples.

Results

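The internal alternative promoters described here are peaks of open chromatin at transcription starts that lie deep inside mouse protein-coding genes. A member is a peak of replicate 1 on an autosome that overlaps a peak of replicate 2 by at least 1 bp and lies within 1 kb of an annotated transcript start of a coding gene (GENCODE M21, mm10). It must also lie more than 5 kb from the 5' end of that gene, which is the outermost start annotated for it, and more than 1 kb from the 5' end of any other coding gene. The rule found 2872 members in 1938 genes, among 60372 peaks shared by both replicates and 230627 autosomal peaks of replicate 1. Of all autosomal peaks of replicate 1, 26.2% were shared, and the members were 4.76% of the shared ones.

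Chromatin was profiled by DNase-seq, in which the nuclease DNase I cuts accessible DNA and the cut ends are sequenced. The material was acute myeloid leukemia cells of the C57BL/6J mouse strain, which the labels class as cells differentiated in vitro and assign to 1 donor identifier, with age and stage unknown and sex not collected. Both biological replicates, replicate 1 and replicate 2, had 2 libraries, pooled before sites were called, so each value below comes from 1 list per replicate and carries no replicate error. No treatment or control is named and no RNA was measured, so an open internal start is a position and a score, not a measured transcript.

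Many mammalian genes begin transcription at more than 1 place. An internal start can swap only the leader of a messenger RNA, can shorten the encoded protein, or can make a noncoding transcript, and in blood cells genes such as Runx1 and Lck are known for starts that are used in different lineages or stages. Promoters rich in CpG dinucleotides tend to be open in many tissues, while internal sites in introns also include enhancers, at which annotated short transcripts can begin.

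The windows of 7 of the highest-ranking members are shown first, as examples of the strongest internal sites with and without an open 5' end. All sequences are from the mm10 reference, 150 bp long, written 5' to 3' on the strand of the gene. Capitals mark exact matches, on either strand, to the consensus motifs that were searched.
Hdac4, chr1:92180436-92180585, minus strand: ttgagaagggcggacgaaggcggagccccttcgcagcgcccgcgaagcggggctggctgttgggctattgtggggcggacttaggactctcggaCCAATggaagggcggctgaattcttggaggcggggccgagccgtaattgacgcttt
Phf19, chr2:34904996-34905145, minus strand: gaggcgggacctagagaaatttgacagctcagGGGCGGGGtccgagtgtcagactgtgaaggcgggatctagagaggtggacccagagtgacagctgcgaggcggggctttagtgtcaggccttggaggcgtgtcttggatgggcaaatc
Ndel1, chr11:68853076-68853225, minus strand: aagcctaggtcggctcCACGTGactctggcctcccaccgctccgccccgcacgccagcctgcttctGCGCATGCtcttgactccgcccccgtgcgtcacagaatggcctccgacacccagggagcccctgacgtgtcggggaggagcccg
Aktip, chr8:91134076-91134225, minus strand: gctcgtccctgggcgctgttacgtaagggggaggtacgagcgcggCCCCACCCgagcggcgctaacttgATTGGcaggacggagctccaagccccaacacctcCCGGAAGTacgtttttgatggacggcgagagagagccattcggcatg
Gpx4, chr10:80053476-80053625, plus strand: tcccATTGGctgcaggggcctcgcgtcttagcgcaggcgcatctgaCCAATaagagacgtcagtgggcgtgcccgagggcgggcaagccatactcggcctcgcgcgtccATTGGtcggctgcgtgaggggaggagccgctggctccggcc
Dcun1d4, chr5:73490876-73491025, plus strand: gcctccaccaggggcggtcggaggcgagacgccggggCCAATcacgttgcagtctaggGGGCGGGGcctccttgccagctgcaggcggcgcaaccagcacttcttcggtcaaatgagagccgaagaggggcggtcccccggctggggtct
Tollip, chr7:141902436-141902585, minus strand: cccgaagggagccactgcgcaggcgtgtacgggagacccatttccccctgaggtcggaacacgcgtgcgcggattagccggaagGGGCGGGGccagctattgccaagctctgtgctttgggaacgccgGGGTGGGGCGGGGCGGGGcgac

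In these windows the capitals of Hdac4 mark an NFY match, those of Phf19 a KLF/SP match, and those of Ndel1 an E-box and an NRF1 match. Aktip holds KLF/SP, NFY and generic ETS matches. Gpx4 holds 3 NFY matches, Dcun1d4 holds NFY and KLF/SP matches, and Tollip holds 4 KLF/SP matches, 3 of them overlapping. The next 3 windows belong to genes with known roles in blood cells and leukemia.
Runx1, chr16:92697316-92697465, minus strand: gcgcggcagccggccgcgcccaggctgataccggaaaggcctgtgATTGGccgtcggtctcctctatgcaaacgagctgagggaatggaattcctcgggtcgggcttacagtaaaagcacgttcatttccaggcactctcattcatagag
Ptpn6, chr6:124733116-124733265, minus strand: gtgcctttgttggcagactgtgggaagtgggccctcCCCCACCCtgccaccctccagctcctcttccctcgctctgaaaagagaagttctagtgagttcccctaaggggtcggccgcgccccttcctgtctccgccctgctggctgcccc
Mecom, chr3:30508416-30508565, minus strand: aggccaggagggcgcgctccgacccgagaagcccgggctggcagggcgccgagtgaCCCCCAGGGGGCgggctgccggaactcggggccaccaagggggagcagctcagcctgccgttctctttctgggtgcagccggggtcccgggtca

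The Runx1 window holds an NFY match, the Ptpn6 window a KLF/SP match, and the Mecom window a CTCF match.

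The labelled cell type was checked at the gene starts of marker genes. Of all 20807 autosomal coding genes, 54.1% had a shared peak within 1 kb of the 5' end. Of 14 genes of immature myeloid cells, 12 had a shared peak at a start, among them Spi1, Cebpa, Mpo, Kit, Flt3 and Hoxa9. Elane and Cd34 had a peak in replicate 1 alone, scoring 131 and 129. Of 16 markers of other cells, Bcl11b, Cdh5, Col1a1 and Epcam had a shared peak. Another 5 had a peak in replicate 1 alone, among them Gata1 and Klf1, and 7 had none. In replicates 1 and 2, Bcl11b scored 116 and 32, Cdh5 130 and 21, Col1a1 140 and 64, and Epcam 99 and 32. The 12 shared myeloid markers scored 126 to 150 and 40 to 97. Col1a1 thus lay within their range in both lists, and Cdh5 in replicate 1 alone. Whether other cells contributed to any member was not tested.

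Members were grouped by the transcripts that begin within 1 kb of them. The first group is 903 members in 633 genes at the start of a principal transcript, the form that the APPRIS annotation takes as the main protein product. The second is 803 members in 585 genes at the start of another coding transcript, and the third is 1166 members in 945 genes where only noncoding transcripts of the coding gene begin. The gene model therefore decides what counts as internal: in 638 of the 903 members at principal starts, no principal transcript began within 1 kb of the 5' end, so that the outermost start belonged to a minor transcript. With the 5' end set to the most upstream principal start, peaks more than 5 kb from it on either side qualified, so starts upstream of it were let in. That setting gave 2576 members, not all of them internal to that start. Of these, 11.3% lay at a principal start, against 31.4% by the rule. With transcripts of the protein_coding type alone there were 1706 members (52.9% principal), and with transcripts of the GENCODE basic set 1300 (69.5%).

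The groups differed in how close the peak sat to its nearest qualifying start, of any class. The median distance was 13 bp for principal members, 138 bp for other coding members and 339.5 bp for members at noncoding starts. The window covered that start in 46.2%, 29.6% and 16.7% of members of the 3 groups, in that order. That start need not be of the group's own class. The Spi1 member, classed as principal, lay 15 bp from its nearest start and 520 bp from the principal one. Members at noncoding starts have noncoding starts only to be near to, so the groups were not compared on equal terms. Transcripts with the best support level in the annotation began at 92.0% of principal members, 48.6% of other coding members and 21.1% of members at noncoding starts. For 213 members every transcript that begins there is annotated as having an unknown true start. Of all members, 51.9% overlapped an annotated exon and 4.87% lay within 1 kb of the start of a long noncoding RNA gene, nearly all on the opposite strand (137 of 140).

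Members ranked between the 5' ends of coding genes and the sites away from coding starts. The deposited score of a peak, which has no stated scale and ends at 150 in replicate 1, was compared within each list only. In replicate 1 the median score was 127 for members (quartiles 108 and 141), 141 for the 14808 shared peaks at 5' ends and 117 for the 41195 shared peaks with no coding start within 1 kb. In replicate 2 the medians were 41 for members (quartiles 28 and 59), 63 at 5' ends and 32 away from coding starts. Among the members, those at principal starts had medians of 139 and 55 in replicates 1 and 2, those at other coding starts 127 and 39, and those at noncoding starts 118 and 36. Principal members thus lay near the 5' ends and noncoding ones near the sites with no coding start, in both lists. These medians are descriptions and were not tested, since neither list has a replicate of its own. With the replicate 1 list alone there were 9304 members with a median score of 82, a list that includes the peaks with no counterpart in replicate 2.

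**Figure D1:**
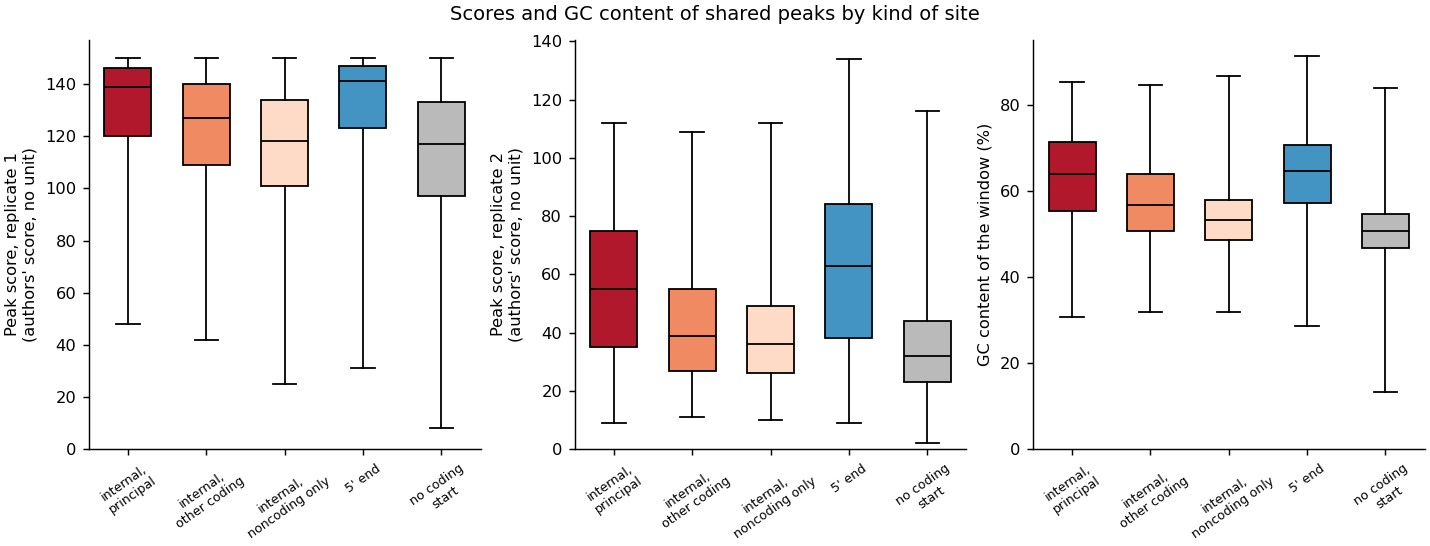
Box plots of the authors' peak score in replicate 1 and in replicate 2 and of the GC content of the 150 bp window, for members at principal, other coding and noncoding starts, for 5' ends and for sites with no coding start within 1 kb. Boxes span the quartiles with the median as a line, and whiskers run from the lowest to the highest value. In all 3 panels the median is highest for principal and lowest for noncoding members within the internal sites: 139 and 118 for the replicate 1 score, and 64.0% and 53.3% for GC.

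Base composition followed the same order. The median GC content was 56.7% in members, 64.7% at 5' ends and 50.7% away from coding starts, and by group it was 64.0% at principal, 56.7% at other coding and 53.3% at noncoding starts. The ratio of observed to expected CpG, a measure of how far CpG has been kept, had a median of 0.416 in members, 0.808 at 5' ends and 0.259 away from coding starts. It reached 0.6 or more in 61.5% of principal members, 30.5% of other coding members and 13.6% of members at noncoding starts, against 74.5% of 5' end peaks and 10.1% of peaks away from coding starts. Hotspots, the wider regions of raised cutting that the authors called, held all 2872 members in replicate 1 and 99.8% of them in replicate 2, beside 100% and 99.7% of all shared peaks, so nearly every shared peak of any kind lay in one. The hotspot around a member had a median width of 1000 bp in replicate 1 and 286 bp in replicate 2, against 1578 and 631 bp at 5' ends and 622 and 243 bp away from coding starts. For principal members the median widths were 1496 and 466 bp, and for members at noncoding starts they were 685 and 255 bp. In replicate 2, 49.3% of members lay in a hotspot at the ceiling of the −log10 q value, 100, against 74.9% of 5' end peaks and 37.0% of peaks away from coding starts.

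Most members accompanied an open 5' end, and a minority stood without one. A shared peak lay within 1 kb of the 5' end of the same gene for 1786 members (62.2%), beside 54.1% of all 20807 autosomal coding genes. For 493 members (17.2%) the 5' end had a peak in replicate 1 alone, for 1 in replicate 2 alone, for 11 in both lists without overlap, and for 581 (20.2%) in neither list. Members of 1 gene share a 5' end, so genes were counted too: of the 1938 genes with a member, 63.8% had a shared 5' end peak and 20.4% had none in either list. The 7873 genes that have a start that could qualify but no member gave 66.1% and 22.0%, so genes with an open internal start had an open 5' end at about the same share as genes without one. Taking each list alone, the 5' end had no peak for 18.1% of members of the replicate 1 list and for 38.5% of members of the shorter replicate 2 list.

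The 5' end was without a peak more often where the internal start was the principal one. It had no peak in either list for 271 of 903 principal members (30.0%), 141 of 803 at other coding starts (17.6%) and 169 of 1166 at noncoding starts (14.5%). Where a principal transcript began at the 5' end, no peak lay there in either list for 268 of 1828 members (14.7%). Where none did, the count was 313 of 1044 (30.0%). With a principal transcript at the 5' end, the share was 24.9% at principal, 14.9% at other coding and 11.8% at noncoding starts. Without one it was 32.1%, 23.8% and 30.7%, so principal and noncoding members then differed little. Over all groups, members without a 5' end peak had median scores of 128 and 43 in replicates 1 and 2. Members beside a shared 5' end peak had 127 and 40. Within each group the order was reversed. At principal starts the medians were 138 and 54 without a 5' end peak and 140 and 57 beside a shared one. At other coding starts they were 125 and 37, against 129 and 39.5, and at noncoding starts 116 and 34, against 119 and 36. Principal members made up 46.6% of those without a 5' end peak and 24.1% of those beside a shared one. Counting every start of the gene at least 2 kb upstream of the member, and not the 5' end alone, 877 members (30.5%) had no shared peak at any of them.

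**Figure D2:**
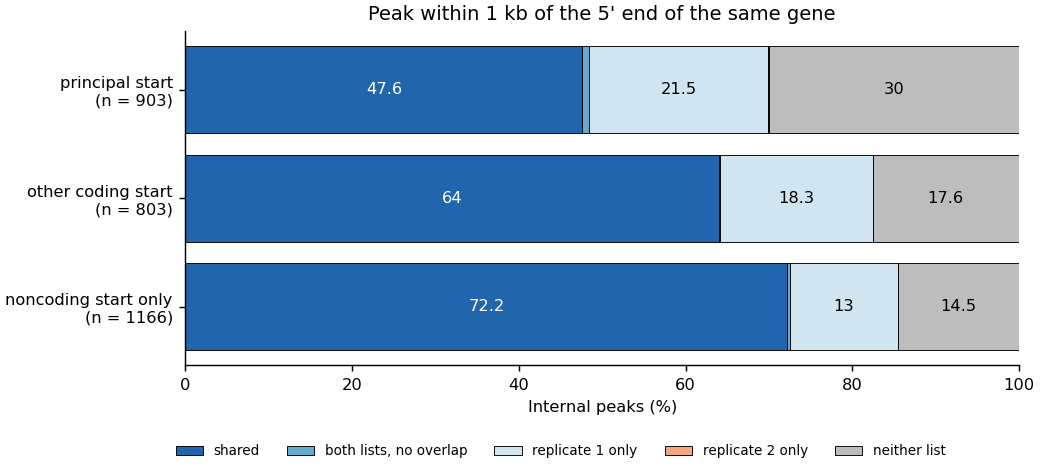
Stacked bars of the share of members, in percent, by the state of the 5' end of the same gene, for principal, other coding and noncoding starts. The share with a shared 5' end peak is 47.6% at principal, 64.0% at other coding and 72.2% at noncoding starts, and the share with no peak in either list is 30.0%, 17.6% and 14.5%.

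Where both ends were open, the 5' end usually had the higher score. Over the 1786 members with a shared 5' end peak, the median score was 127 at the internal start and 144 at the 5' end in replicate 1, and 40 and 72 in replicate 2. The internal peak scored above its 5' end peak in both lists for 312 members (17.5%) and below it in both for 1205 (67.5%), and 269 were tied or mixed. The 5' end score is that of the strongest peak there in each list, while each internal peak was compared singly, which favours the 5' end. With only the highest-ranking member of each gene, the share above in both lists was 18.6%. By group, the internal peak was above in both lists for 143 of 430 principal members (33.3%), 82 of 514 at other coding starts (16.0%) and 87 of 842 at noncoding starts (10.3%). Over the groups together, again among members with a shared 5' end peak only, the share was 28.7% in the GENCODE basic set. It was 27.4% for shared peaks above the median mean rank, the mean of a peak's percentile ranks in both lists. That setting selects internal peaks by the scores compared here and leaves 5' end peaks unselected. A higher share was thus built in and is not a result about the members. Where the 5' end had a peak in replicate 1 alone, that peak had a median score of 72, against 125 at the internal start.

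**Figure D3:**
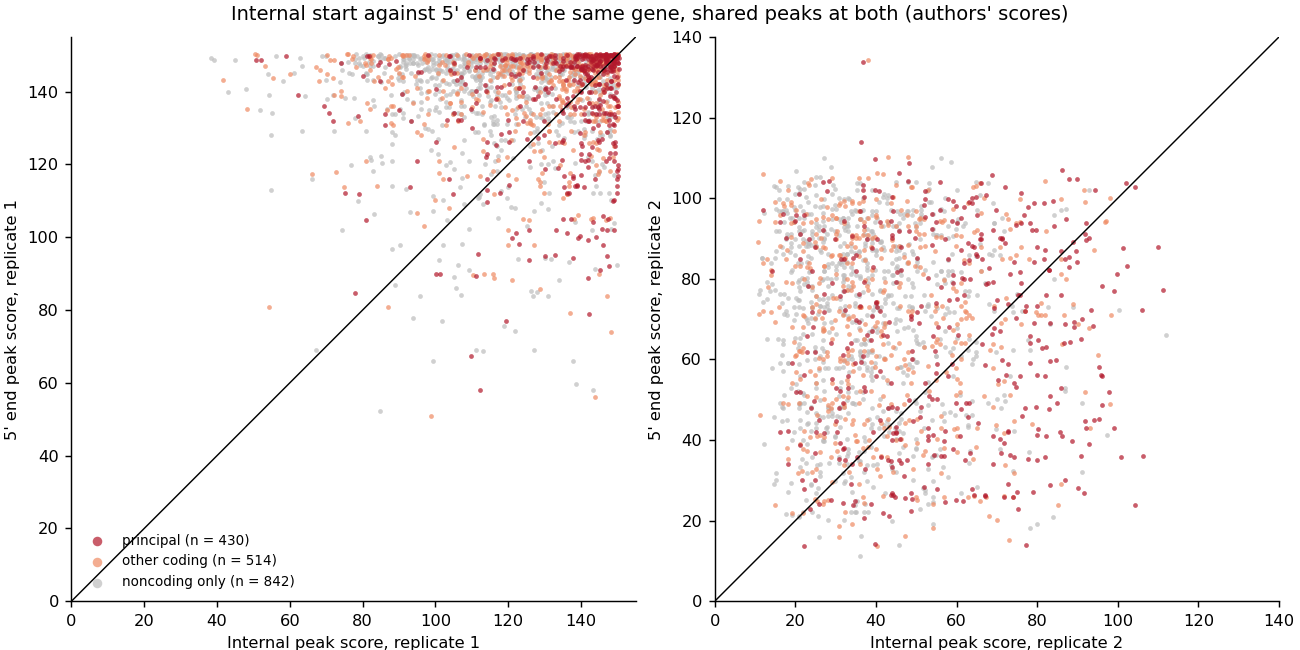
Score of the internal peak (x axis) against the score of the strongest peak at the 5' end of the same gene (y axis) in replicate 1 and replicate 2, over the 1786 members with a shared peak at both; each point is a member, colours mark the kind of start and the line marks equal scores. Most points lie above the line (1205 members in both lists), and principal members make up 143 of the 312 that lie below it in both.

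Depth inside the gene went with the kind of start. The median distance of a member from the 5' end was 24298 bp, with a range of 5003 to 2855985 bp, and it was 16886 bp at principal, 32360 bp at other coding and 26718.5 bp at noncoding starts. At 5 to 10 kb from the 5' end 44.9% of 630 members were principal, and beyond 100 kb 14.7% of 380 were. The median replicate 1 score was 131 in the nearest of these bins and 121 in the farthest, and the median replicate 2 score was 45 and 34. Just inside the 5 kb limit lay members of Cfap157 (5003 bp), Snd1 (5017 bp) and Insig2 (5024 bp), which scored 121 and 41, 149 and 93, and 91 and 24 in replicates 1 and 2. Just outside it lay peaks of Plcd1 (4997 bp), Sp2 (4994 bp) and Pgbd5 (4993 bp), which scored 146 and 88, 150 and 94, and 150 and 89.

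What an internal start would do to the protein could be read from the annotated coding sequence for 1498 members. The most upstream start codon of the transcripts that begin there was the same as the most upstream one of the gene in 821 of them, so that translation could begin at the same place, and lay downstream in 677 (45.2%). At principal starts it was downstream in 223 of 903 (24.7%), and the coding sequence then still had a median length of 100% of the longest of the gene. At other coding starts it was downstream in 454 of the 595 compared (76.3%), with a median coding length of 64.8% of the longest (quartiles 28.7% and 92.5%).

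The 10 members of highest mean rank all scored 150 in replicate 1, and 9 of them lay at a principal start. In the genes of these 9, no principal transcript began within 1 kb of the 5' end. Hdac4, which encodes a class IIa histone deacetylase, had the first, 15.1 kb from its 5' end and 95 bp from the principal start of Hdac4-202, with scores of 150 and 112 in replicates 1 and 2. Its 5' end had a peak of 63 in replicate 1 alone. Phf19, a Polycomb accessory gene, was the only one of the 10 at a noncoding start, Phf19-202, and scored 150 and 112, against 141 and 66 at its 5' end. The window of Ndel1, which encodes a dynein regulator, covered the start of Ndel1-201 and scored 150 and 111, against 148 and 77 at the 5' end. Both members scored above their 5' ends in each list.

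Of the remaining 7, Ifrd1, Srrm2, Rangap1 and Tecr had a shared 5' end peak. Srrm2, which encodes a splicing scaffold protein, scored 150 and 106 at Srrm2-210, against 116 and 36 at its 5' end. Rangap1, which encodes the activator of the Ran GTPase used in nuclear transport, scored 150 and 104, against 112 and 24 at its 5' end. Ifrd1 scored 150 and 106, against 149 and 72 at its 5' end. Tecr, which encodes an enoyl reductase of fatty acid elongation, scored 150 and 104, against 150 and 103, so its ends were level in replicate 1 and 1 unit apart in replicate 2. The other 3, Aktip, Gpx4 and Dcun1d4, had no 5' end peak in either list.

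Among members without any 5' end peak the highest 10 were those of Aktip, Gpx4, Dcun1d4, Ssc4d, Iffo2, Lman1, Tbc1d14, Inip, Vdac2 and Tollip. Of these, 8 lay at a principal start, and Ssc4d and Iffo2 at other coding starts. In those 8 genes no principal transcript began within 1 kb of the 5' end, whereas Ssc4d and Iffo2 had a principal transcript there. Gpx4 encodes the glutathione peroxidase that removes lipid peroxides. Its window covered the start of the principal Gpx4-202, 6.32 kb from an outermost start that only 1 noncoding transcript uses, and scored 150 and 108. Aktip, whose product takes part in vesicle transport, scored 150 and 109 at 65.8 kb from its 5' end. Tollip, which encodes an adaptor of Toll and interleukin 1 receptor signalling, scored 148 and 104 over the start of Tollip-201, and Vdac2, a channel of the outer mitochondrial membrane, 148 and 104 over that of Vdac2-201. Inip, part of a single-stranded DNA-binding complex, scored 149 and 100 over the start of Inip-201. In Ssc4d, a scavenger receptor gene with scores of 150 and 103, the transcript at the internal start carries 22.9% of the longest coding length.

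The 8 gene lists, 5 on blood, leukemia, chromatin and known alternative promoters and 3 on other cell types, were read against all coding genes with a start that could qualify, of which 19.8% (1938 of 9811) had a member. Long genes with many transcripts have more such starts, the lists overlap, and no test was made, so the shares are descriptions. Genes known for alternative promoters had members in 32 of 43 (74.4%), with 18 of 58 members at principal starts. Myeloid and stem cell transcription factors had them in 18 of 32 (56.3%), leukocyte receptors and proximal signalling genes in 20 of 43 (46.5%), genes recurrently mutated or rearranged in human AML in 15 of 42 (35.7%), and chromatin and DNA methylation regulators in 20 of 63 (31.7%). Lists of other tissues were not empty: neuronal genes had members in 11 of 33 (33.3%), epithelial and muscle genes in 6 of 17 (35.3%), and lymphoid, erythroid and mast cell genes in 5 of 19 (26.3%). Those members had median replicate 1 scores of 110 for neuronal, 88 for epithelial and muscle, and 118 for lymphoid, erythroid and mast cell genes, beside 132.5 for the known alternative promoter genes and 139.5 for the transcription factors.

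Genes whose alternative promoters are well described showed each arrangement. Runx1 encodes a transcription factor needed for blood stem cell formation and has a distal and a proximal promoter, both of which are known to be used in blood. The stronger of its 2 members covered the start of Runx1-202, 128.8 kb inside the gene, and scored 145 and 61, against 150 and 73 at the 5' end. A second member 483 bp from the same start scored 132 and 36. Both ends of Runx1 were thus open in both lists, with the 5' end higher. Lck, which encodes a kinase of T cell receptor signalling and is known in T cells for a distal and a proximal promoter, had a member over the noncoding start of Lck-203 with scores of 142 and 83, while its 5' end had a peak of 49 in replicate 1 alone. No coding transcript of Lck began within 1 kb of the member, and whether it is either known promoter was not tested.

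Ptpn6 encodes the phosphatase SHP-1 and is known for an upstream start used in epithelial cells and a downstream start used in blood cells. Its member covered the principal start of Ptpn6-202, 5.56 kb from the 5' end, and scored 146 and 80, against 145 and 41 at the 5' end. The internal score was higher in both lists, by 1 unit in replicate 1. Dnmt1, the maintenance DNA methyltransferase gene, is known in mouse for separate oocyte and somatic starts. Its member, 54 bp from the principal start of Dnmt1-201, scored 148 and 97, and its 5' end had no peak in either list. Tpm1, a tropomyosin gene with alternative first exons, scored 140 and 91 over the start of Tpm1-212, while its 5' end had a peak of 78 in replicate 1 alone. Nr3c1, which encodes the glucocorticoid receptor and has several alternative first exons, scored 149 and 74, against 121 and 26 at its 5' end.

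Among myeloid and stem cell transcription factors, Spi1 encodes PU.1, which directs myeloid and B cell development, and an upstream enhancer of it is well known. In the annotation used, the 5' end of Spi1 belongs to Spi1-204, and the principal Spi1-201 starts 13.7 kb inside the gene. The Spi1 member lay 520 bp from that start and 15 bp from the start of Spi1-203, and scored 147 and 76, against 150 and 94 at the 5' end. Whether the peak at this 5' end is the upstream enhancer or a promoter was not tested. The same peak stood for Spi1 among the cell type markers. Rxra, a retinoid receptor gene, scored 148 and 91 at the noncoding Rxra-205, against 110 and 32 at the 5' end. Its partner gene Rara scored 145 and 68 at Rara-202, where the 5' end had a peak of 72 in replicate 1 alone. Ets1, which encodes an ETS family factor, scored 148 and 81 over its principal start 59.8 kb inside the gene, with 105 at the 5' end in replicate 1 alone. Mef2c scored 149 and 76 over the start of Mef2c-208, 68.3 kb inside the gene, and had no 5' end peak in either list. Nfe2, which encodes a factor of erythroid and megakaryocyte genes, was the opposite case, with 144 and 73 at Nfe2-209, against 150 and 95 at the 5' end.

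Of the chromatin regulators besides Hdac4 and Dnmt1, the histone acetyltransferase gene Kat6b scored 150 and 95, with a 5' end peak of 54 in replicate 1 alone. Kdm4c, a histone demethylase gene, scored 149 and 86 over its principal start and had no 5' end peak. Chd8, a chromatin remodeller gene, scored 146 and 86, against 150 and 81 at its 5' end, so the order of its ends differed between the lists. Idh1, whose enzyme is recurrently mutated in AML, scored 147 and 80, against 149 and 92 at the 5' end.

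Among genes rearranged in human AML, Mllt10, a fusion partner of KMT2A, scored 148 and 88 over its principal start, with a 5' end peak of 71 in replicate 1 alone. Aff1, another KMT2A partner, scored 146 and 66, against 147 and 85 at the 5' end. Mecom encodes zinc finger factors known as longer and shorter forms from separate starts. Its member lay 949 bp from the start of Mecom-213, a coding transcript, 39.4 kb from a 5' end with no peak in either list, and scored 138 and 60.

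Receptor and signalling genes gave further pairs. Cd47, the gene of a surface signal that restrains phagocytosis, scored 150 and 80, against 146 and 56 at its 5' end. Cd33, a sialic acid receptor gene of myeloid cells, scored 149 and 61, against 144 and 41 at the 5' end, in a window of 43.3% GC. Il17ra, an interleukin 17 receptor gene, scored 149 and 87 over a noncoding start, against 133 and 58 at the 5' end. Coro1a, an actin regulator gene of leukocytes, scored 139 and 76 over a noncoding start, with 108 at the 5' end in replicate 1 alone. In Cd47, Cd33 and Il17ra the internal score was the higher in both lists.

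Members in genes of other cell types ranged widely. The highest neuronal one, in the calcium channel gene Cacna1a, scored 149 and 88 at the noncoding Cacna1a-205, 251 kb from a 5' end without a peak. Only 1 transcript begins at that 5' end, and it is not of the protein_coding type. Dlgap4, a synaptic scaffold gene, scored 144 and 73, against 56 and 15 at its 5' end, and Nrxn2 scored 131 and 64, against 136 and 70. In muscle and epithelial genes the members included those of Dmpk (133 and 64), Cacna1s (104 and 38), Actn2 (88 and 33), Ryr1 (88 and 21) and Grhl2 (68 and 17). None of the 6 genes of that list with a member had one at a principal start. The B cell factor gene Pax5 scored 129 and 59 and the B cell receptor gene Cd22 scored 118 and 58, each with a 5' end peak in replicate 1 alone, of 51 and 68.

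Most genes had 1 member (1323 of 1938), 412 had 2 and 71 had 4 or more. Gse1, which encodes a coiled-coil nuclear protein, had the most, 10, in 3 places: around its principal start 260 kb inside the gene, around the coding starts 307 and 309 kb inside, and at 342 kb. They scored 117 to 148 in replicate 1 and 37 to 74 in replicate 2, against 105 and 26 at the 5' end, so all 10 were above it in both lists. Cic, which encodes a repressor known in a long and a short form, had 9 within 10.7 to 16.1 kb of its 5' end. The highest lay 54 bp from the start of Cic-202, which carries 63.9% of the longest coding length, and scored 149 and 97, against 150 and 94 at the 5' end. Ppp2r3d, a phosphatase subunit gene, had 8 members in 2 groups, at 52.7 to 53.8 kb and at 35.2 to 36.8 kb from a 5' end with a peak of 85 in replicate 1 alone. In replicate 1 the lowest of the 8 scored 102 and the highest 150, and in replicate 2 these were 22 and 98.

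Gnas, the imprinted gene of a stimulatory G protein subunit, is known for several alternative first exons. It had 7 members, 6 of them 43.0 to 46.5 kb and 1 of them 59.9 kb from a 5' end with a peak of 54 in replicate 1 alone. They scored 120 to 146 in replicate 1 and 29 to 63 in replicate 2. Pde4d, a cyclic AMP phosphodiesterase gene with many known starts, had 7 members spread over 666 to 1477 kb, the strongest at 1453 kb near the start of Pde4d-207 with scores of 141 and 54, while the 5' end had a peak of 39 in replicate 1 alone. The members farthest from a 5' end were in Fgfr2 (2856 kb, scores 60 and 16), Pde4d and Magi2 (1475 kb, scores 127 and 51). In Fgfr2 only 1 transcript begins at the outermost start.

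**Figure D4:**
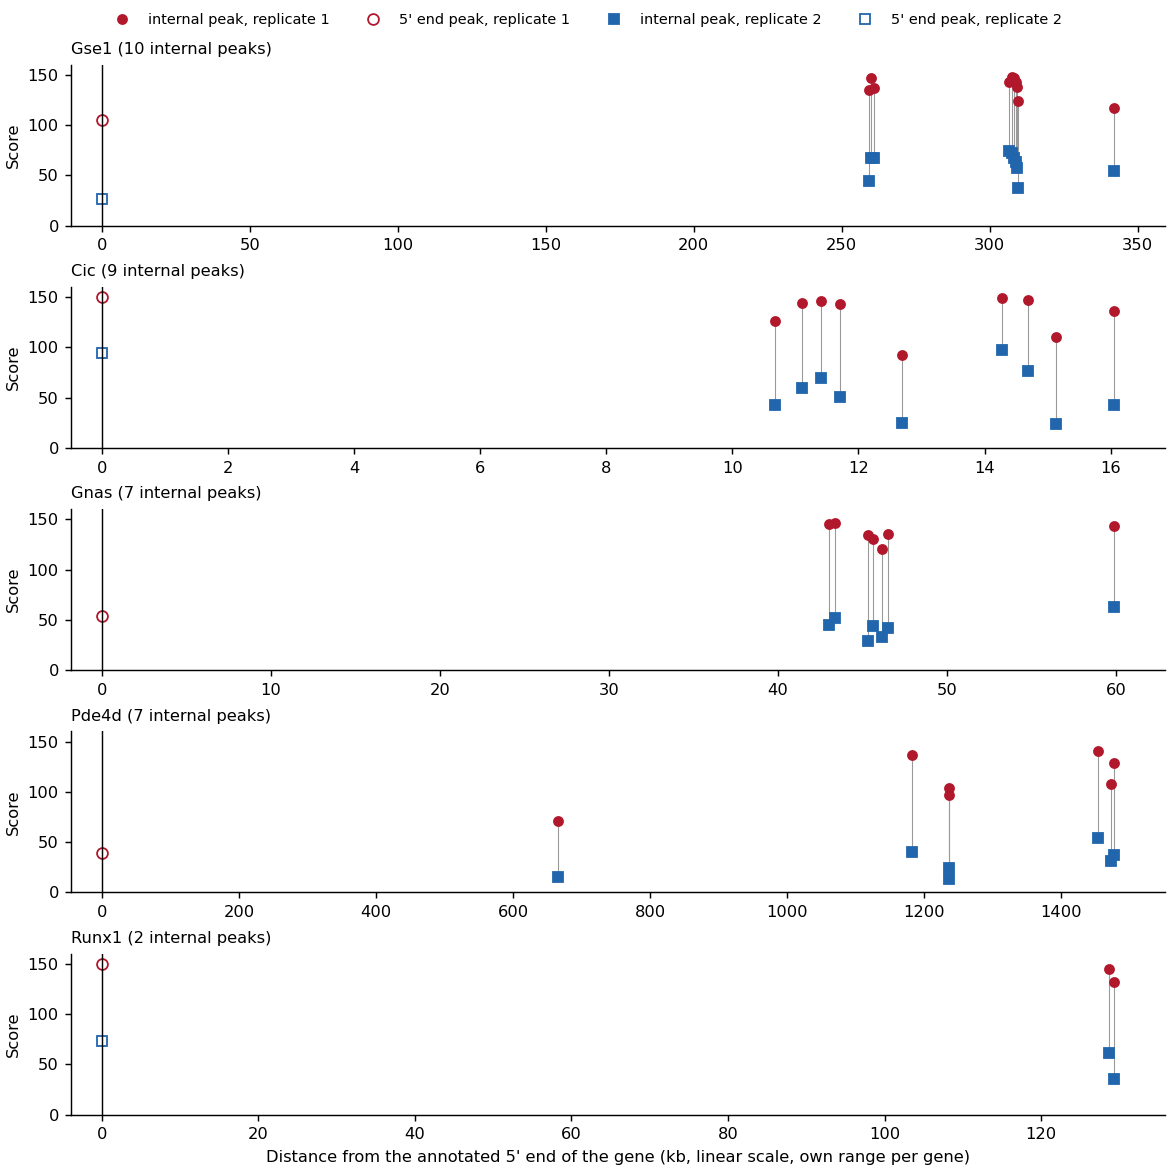
Scores of every member of Gse1, Cic, Gnas, Pde4d and Runx1 by distance from the annotated 5' end in kb. Filled circles are replicate 1 and filled squares replicate 2, thin lines join the 2 values of a member, and open symbols at 0 are the strongest 5' end peak of each list. Gse1 members at 259 to 342 kb all lie above the 5' end scores of 105 and 26, and both Runx1 members lie below those of 150 and 73.

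Sequence matches were counted in whole windows, on both strands, for 13 motifs: KLF/SP (CCCCGCCC or CCCCACCC), NFY (CCAAT), generic ETS (CCGGAAGT), PU.1-type ETS (GAGGAAGT), NRF1 (GCGCATGC), E-box (CACGTG), RUNX (TGTGGT), C/EBP (TTGCGCAA, TTGCACAA or TTACGCAA), AP-1 (TGAGTCA or TGACTCA), CRE (TGACGTCA), YY1 (AAGATGGC), the TATA box (TATAAA) and CTCF, whose 4 patterns are named only. A YY1 match can lie inside a CTCF match, and neighbouring matches of 1 motif can overlap, as in Tollip. KLF/SP matched 16.2% of members, against 26.6% of 5' end peaks, 6.17% of peaks away from coding starts and 12.03% of all shared peaks. Generic ETS matched 1.81% of members, against 5.17%, 0.859% and 1.97% in the same order, and NFY 17.6%, against 24.4%, 17.4% and 19.1%. CTCF, the factor that anchors chromatin loops, matched 13.5% of members, against 4.55%, 19.9% and 15.5%, and RUNX 13.8%, against 6.49%, 20.2% and 16.3%. PU.1-type ETS matched 5.43%, against 2.66%, 7.53% and 6.16%, AP-1 5.12%, against 2.11%, 6.46% and 5.26%, and C/EBP 1.88%, against 0.959%, 2.68% and 2.19%. For the rest, NRF1 matched 1.22% of members and 1.10% of all shared peaks, the E-box 4.67% and 4.54%, CRE 1.04% and 0.944%, YY1 1.53% and 1.54%, and the TATA box 2.23% and 3.66%.

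The members divided by kind of start. KLF/SP matched 23.3% of principal members, 18.7% at other coding and 9.01% at noncoding starts. CTCF ran the other way, with 6.42%, 11.5% and 20.5%, as did RUNX with 8.53%, 13.1% and 18.4% and PU.1-type ETS with 3.32%, 5.60% and 6.95%. Generic ETS matched 3.88% of principal members and 0.872% and 0.858% of the others. Members at noncoding starts thus held CTCF, RUNX and both ETS forms at shares near those of sites with no coding start, while their KLF/SP share was 9.01%, against 6.17%. GC content differs between the groups in the same order, and its part in these shares was not tested.

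**Figure D5:**
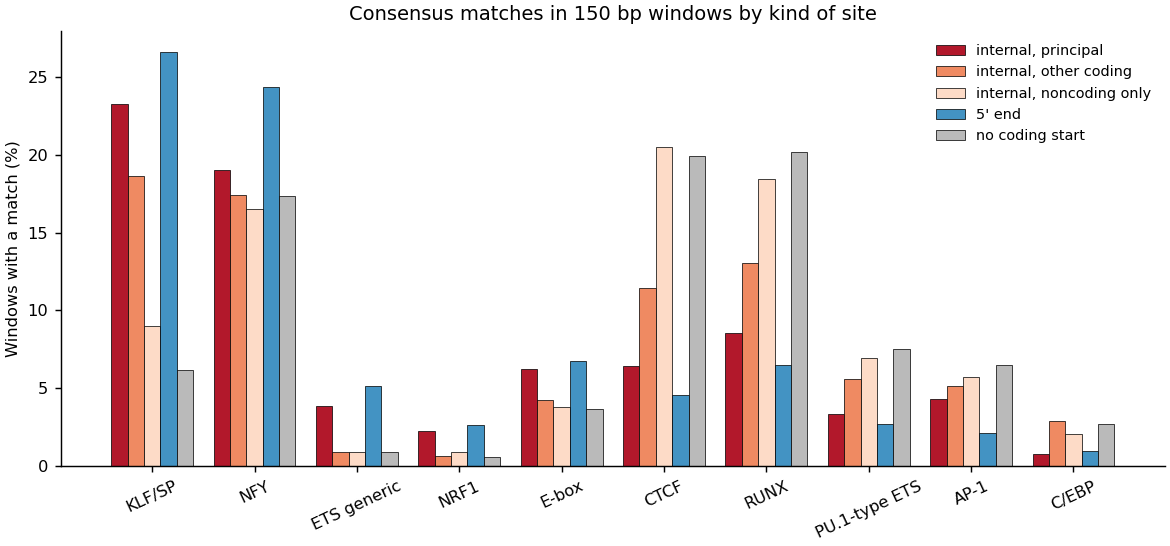
Percent of 150 bp windows with at least 1 exact consensus match on either strand, for members at principal, other coding and noncoding starts, for 5' ends and for sites with no coding start within 1 kb. KLF/SP matches 23.3% of principal and 9.01% of noncoding members, while CTCF matches 6.42% of principal and 20.5% of noncoding members.

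How often an internal peak of replicate 1 was found again in replicate 2 followed its score. Of the 9304 peaks of replicate 1 at internal starts, 30.9% were shared, beside 26.2% of all its autosomal peaks and 51.7% of those at 5' ends. The share was 41.3% of 2188 at principal starts, 30.6% of 2625 at other coding starts and 26.0% of 4491 at noncoding starts. At scores of 140 to 150 it was 95.6%, 94.2% and 96.4% in the 3 groups, against 95.9% of all replicate 1 peaks, and at scores of 80 to 99 it was 18.6%, 20.96% and 24.6%, against 23.2%. Between the lists, the scores of members correlated with a Spearman rho of 0.807 (n = 2872 members of the same 2 lists, a description only), against 0.894 at 5' ends and 0.676 away from coding starts.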

How the data were processed

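The deposited files hold, per the labels and the text files deposited with the samples, 1 peak list and 1 hotspot list on mm10 for each biological replicate, made by the authors from the pooled alignment of its 2 libraries. Each peak is a 150 bp window with a score deposited by the authors as a whole number. The score's definition, the peak caller, its settings and the read depth were unknown (not given in the sources used here). Therefore no interval that needs depth is given and scores were compared within a list only. Each hotspot carries a −log10 q value deposited by the authors, with a ceiling of 100.

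Of windows listed more than once (48 extra lines in replicate 1 and 5 in replicate 2), 1 copy was kept. Coordinates are 1-based on mm10, and starts, transcript types and APPRIS tags are from GENCODE M21. A shared peak keeps the score of its strongest partner. A member was assigned to 1 gene and classed by any start within 1 kb, principal before other coding before noncoding. Shared peaks at 5' ends and shared peaks with no coding start within 1 kb served as comparison. Sequences came from the RefSeq GRCm38.p6 FASTA. Python 3.11.15 with pandas 2.3.3, numpy 2.4.6 and scipy 1.17.1 and samtools 1.23.1 were used. The distance part of the rule and the search for the KLF/SP motif were tested on simulated data. The other motifs, the overlap of replicates and the exclusion of 5' ends of other genes were not.

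The members, gene lists and motifs were chosen with earlier results of these data known. Named genes are the 10 members of highest mean rank, the 10 of highest mean rank without a 5' end peak, the 5 farthest, the 5 genes with most members, those nearest the 5 kb limit and up to 6 genes per list, of which some values are not reported here. With 1 pooled list per replicate no test was made. Alternatives changed the promoter window, the distance limit, the transcripts used, the 5' end, the overlap, the score and list length, and left out each replicate list.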

Additional observations from a re-analysis of the deposited data

How the results depend on the processing

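A share or median was taken as moved where it left the 95% interval of its value by the rule (binomial for shares, order statistics for medians), and a count where it changed by more than 1.5 times. Members of 1 gene share a 5' end and the settings share members, so the interval served as a yardstick and not as a test. Of 122 recomputed values 65 did not move. Some changes follow from the setting itself. Transcripts of the protein_coding type keep the 903 principal and 803 other coding members and drop those at noncoding starts, and the basic set keeps all 903 principal ones. For the other changes the cause was not tested. Shares in this paragraph follow 1 order: members at a principal start, beside a shared 5' end peak, without a 5' end peak, and above the 5' end in both lists. The last is a share of the members with a shared 5' end peak. A promoter window of 500 bp gave 34.2% principal, 20.1% above the 5' end, a median replicate 1 score of 131 and 58.0% GC, and one of 2 kb 27.4% principal, 64.9% beside a shared 5' end, 14.8% above, a score of 124 and 54.7% GC. Limits of 2 and 10 kb gave 34.9% and 27.7% principal. The most upstream principal start as the 5' end, which also let in starts upstream of it, gave 11.3% principal, 14.1% above, a score of 124 and 55.3% GC. Transcripts of the protein_coding type alone gave 1706 members in 1141 genes, with 52.9%, 55.3%, 24.2% and 23.8%, a score of 134 and 60.0% GC. The basic set gave 1300 in 869 genes, with 69.5%, 51.8%, 26.6% and 28.7%, a score of 136 and 62.7% GC. Leaving out transcripts of unknown start gave 34.0% principal, and an overlap of at least 50% of both windows 60.4% beside a shared 5' end. Shared peaks above the median mean rank gave 1677 members in 1214 genes, 40.0% principal, 27.4% above, a score of 139 and 59.3% GC. The higher score and share above come with selecting members by score. Lists of equal length gave 34.5% principal, 59.8% beside a shared 5' end, a score of 133 and 57.3% GC, and 1 peak per gene a score of 130.

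Without replicate 1 or without replicate 2 there were 3164 to 9304 members in 1961 to 4022 genes. Of these, 23.5% to 32.7% were principal, 61.5% to 81.9% lay beside a 5' end peak of that list and 18.1% to 38.5% had none. Of the members beside such a peak, 19.5% to 22.8% scored above it. The median GC content of all members was 52.7% to 56.7%. The replicate 1 list alone had a median score of 82, and the replicate 2 list alone has no replicate 1 score. Counting motifs within 50 bp of the centre gave 1.32% for generic ETS, 11.7% for KLF/SP and 11.7% for CTCF. No paired analysis was possible because the libraries that carry replicate numbers were pooled before sites were called, so samples could not be paired by number. The limits are that the score scale and depth are unknown, that replicate 1 scores end at 150, and that no RNA was measured.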
